A study of Mus musculus with 3 samples.

Results

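The constant genes of the T cell receptor, Trac, Trbc1, Trbc2, Trdc, Tcrg-C1 and Tcrg-C2, were followed together with the gamma variable segment Trgv2 in single cells of mouse liver. These 7 genes were listed by name, of 23860 genes with a column in at least 1 of 2 libraries, and all 7 were measured in both. They are among 182 columns that belong to the 4 T cell receptor loci. The question was how alpha-beta and gamma-delta constant genes were used in Cd3-positive cells of each library, and how far they were seen in other cells.

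Both libraries came from livers of C57BL/6J mice and were captured on the BD Rhapsody system, which counts molecules (UMIs) near the 3′ end of transcripts. The HFHC pool held wild-type and Chil1-/- mice (Chi3l1-/- in the study) fed a high-fat, high-cholesterol diet for 16 weeks. Its counts carry no genotype per cell and its tag reads were not analysed, so that neither genotype nor animal was separated here. The other library is titled MCD in its labels, is given as wild-type mice on normal chow diet (NCD) in the study's methods, and is named APAP0h in its file header. It was tied to its sample by elimination and is called the MCD-titled library here. The labels name primary parenchymal cells, whereas the study isolated non-parenchymal cells. With 1 library per diet there was no replicate and no test. The diet cannot be told apart from the capture, the library and the Chil1-/- mice in the pool. Intervals in brackets are exact 95% intervals, Poisson for summed UMIs and binomial for shares, and cover counting error only.

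A T cell recognizes antigen through a receptor made either of an alpha and a beta chain or of a gamma and a delta chain. Each chain joins a rearranged variable part to a constant part, and the constant parts anchor the receptor in the membrane and hold it to the CD3 proteins that carry the signal inward. The delta locus lies inside the alpha locus, so that joining of an alpha chain removes the delta constant gene from that chromosome. The liver is known for many NKT, gamma-delta T and NK cells.

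The genes lie at 3 places of GRCm38, by the GENCODE vM21 annotation. Trbc1, at chr6:41538218-41539881 on the plus strand, and Trbc2, at chr6:41546730-41548352, are the 2 beta constant genes and lie 6848 bases apart. Trdc, the delta constant gene, is at chr14:54142851-54148868 and Trac, the alpha constant gene, follows it at chr14:54220521-54224206, after 71652 bases on the same plus strand. Tcrg-C1, a gamma constant gene, is at chr13:19214103-19217024 on the plus strand. Tcrg-C2, another, is at chr13:19304649-19307551 on the minus strand, and Trgv2 is at chr13:19336573-19337167 on the same strand, 29021 bases further. A further gamma constant gene with UMIs in these cells is Tcrg-C4, which begins 7390 bases beyond Trgv2 at chr13:19344558-19352756.

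The 2 beta genes, and Tcrg-C1 with Tcrg-C2, are near copies, which limits how a short read can be assigned. The first coding exons of Trbc1 and Trbc2 have 375 bases and differ at 1. The following 143 coding bases differ at 22, and within the coding sequence it is mostly by these that a read can be given to one gene. They are shown with a short stretch before them, as bases 351 to 518 of the coding sequence from the GENCODE vM21 transcripts, 5′ to 3′, with capitals where the 2 genes differ.

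Trbc1: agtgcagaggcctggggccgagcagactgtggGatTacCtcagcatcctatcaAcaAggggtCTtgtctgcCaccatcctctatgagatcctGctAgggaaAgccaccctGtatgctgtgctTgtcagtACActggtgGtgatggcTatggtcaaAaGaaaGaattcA
Trbc2: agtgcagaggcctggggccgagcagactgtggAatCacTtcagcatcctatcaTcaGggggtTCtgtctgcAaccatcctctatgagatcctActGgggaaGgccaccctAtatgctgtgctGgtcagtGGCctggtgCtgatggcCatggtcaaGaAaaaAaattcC

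Of the stretches of 50 bases in the whole Trbc1 transcript, 41.13% are also in Trbc2. A 3′ method reads most in the last 300 bases, and none of the stretches there are in the last 300 bases of Trbc2. The first exons of Tcrg-C1 and Tcrg-C2 have 330 bases and differ at 9. Their first 200 coding bases, of which 6 differ, are given to show how few bases separate them, again with the differing bases in capitals.

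Tcrg-C1: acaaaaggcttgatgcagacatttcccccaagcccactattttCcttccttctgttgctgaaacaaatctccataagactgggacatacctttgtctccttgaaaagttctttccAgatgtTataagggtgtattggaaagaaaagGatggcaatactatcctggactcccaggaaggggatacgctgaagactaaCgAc
Tcrg-C2: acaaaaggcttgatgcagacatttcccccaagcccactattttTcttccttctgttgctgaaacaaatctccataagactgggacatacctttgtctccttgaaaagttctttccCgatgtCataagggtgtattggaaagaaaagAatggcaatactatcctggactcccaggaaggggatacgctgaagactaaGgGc

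Here 17.94% of the 50-base stretches of the Tcrg-C1 transcript recur in Tcrg-C2. Of those in its last 300 bases, 21.91% recur in the last 300 bases of Tcrg-C2. How the authors' pipeline assigned reads that match both is not given in the sources used here, so the split within each pair is uncertain and the sums Trbc1 with Trbc2 and Tcrg-C1 with Tcrg-C2 are the firmer values. UMIs are not scaled by gene length, and levels are therefore compared between groups of cells for 1 gene at a time.

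After the filter on cells, 23346 cells of the MCD-titled library and 19625 of the HFHC pool were kept. Cd3-positive cells, with at least 2 UMIs of Cd3d, Cd3e and Cd3g together, numbered 3076 (13.2%) and 2795 (14.2%). They were checked on 9 other T cell markers, all of which had UMIs, with summed levels of 2237 and 2525 CPM (a gene's UMIs per 1000000 UMIs of the group of cells) against 42.8 and 53.4 CPM in B-like cells. The pool was deeper, with a median of 3578 UMIs per Cd3-positive cell against 2060.5, so shares of cells are also given after each cell was thinned to 1000 UMIs, which left out 183 and 19 shallower cells. Scrublet, a doublet caller, marked 416 (13.5%) and 180 (6.44%) of the Cd3-positive cells, which were kept. Kupffer cell markers summed to 1554 and 220 CPM in Cd3-positive cells and hepatocyte markers to 1431 and 2050 CPM, and their part in the results was not tested. Of the cell barcodes, 756 occurred in both libraries.

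The alpha-beta genes stood at nearly the same level in the Cd3-positive cells of both libraries, while the gamma constant genes were lower and Trdc was higher in the HFHC pool. Trac was at 1728 CPM [1698 to 1758] in the MCD-titled library and 1723 [1699 to 1747] in the pool. Trbc2 was at 2009 [1977 to 2041] and 2030 [2004 to 2057] CPM. Trbc1 was at 448 [433 to 463] and 496 [483 to 509] CPM. The intervals of Trac and of Trbc2 thus overlapped between the libraries. Those of Trbc1 did not, but they overlapped with doublets removed (459 to 494 and 490.0 to 517 CPM) and with cells holding markers of another lineage removed (482 to 523 and 500.005 to 531 CPM). Tcrg-C1 was at 303 [290 to 315] and 144 [138 to 152] CPM, and Tcrg-C2 at 367 [353 to 380] and 193 [185 to 201] CPM. Trgv2, the segment that is joined to a gamma constant gene, was at 82.7 [76.3 to 89.4] and 55.9 [51.6 to 60.4] CPM. The order was opposite for Trdc, at 109 [102 to 117] and 150 [143 to 157] CPM.

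Most Cd3-positive cells held a UMI of Trac and Trbc2, and few held one of Trdc. Trac was found in 84.4% and 91.9% of Cd3-positive cells, and in 72.4% and 73.5% at 1000 UMIs. Trdc was found in 5.66% and 6.48%, and in 4.63% and 5.19% at 1000 UMIs. A Trdc-positive cell carried on average 4.75 and 9.36 Trdc UMIs, and up to 23 and 42. Trdc was therefore held by few cells with several UMIs each. Tcrg-C1 was found in 20.7% and 9.55% of cells at 1000 UMIs (30.7% and 17.4% unthinned) and Tcrg-C2 in 23.0% and 12.3% (30.2% and 22.2%). Both gamma genes were thus in fewer cells of the pool, at either depth. Trgv2 was in 7.29% and 4.94% (13.04% and 13.17% unthinned), so that this share differed between the libraries only at equal depth.

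**Figure D1:**
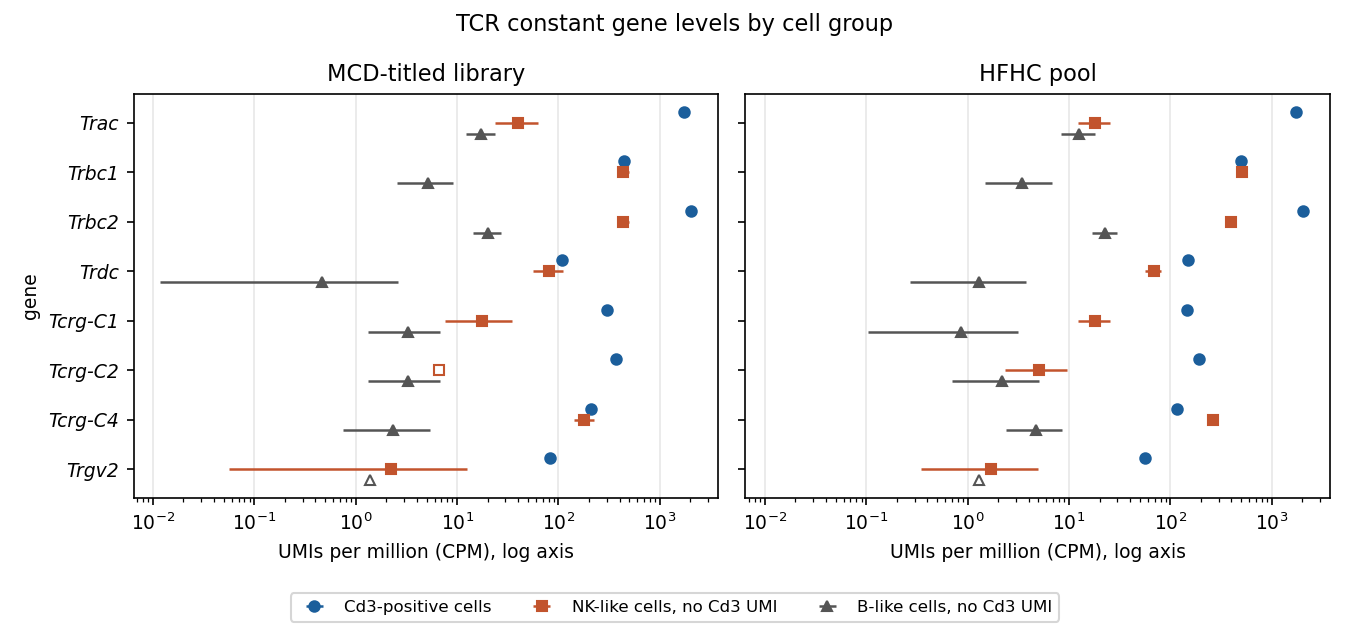
Level of the 7 genes and of Tcrg-C4 (CPM, logarithmic axis) in Cd3-positive cells, NK-like cells without a Cd3 UMI and B-like cells without a Cd3 UMI of each library. Bars are 95% Poisson intervals and open symbols mark the floor of 3 UMIs where none was counted. In NK-like cells Trbc1 stood at 436 and 506 CPM and Trac at 40.0 and 18.1 CPM.

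In cells without a Cd3 UMI the 7 genes were lower than in Cd3-positive cells, and some of them stood above the B-like level in NK-like, T-like and plasma-like cells and in clusters that took no name. Of the kept UMIs of Trac, 89.8% in the MCD-titled library and 95.9% in the pool lay in Cd3-positive cells. The share was 81.2% and 81.1% for Trbc1, the lowest of the 7, and 93.3% and 98.1% for Trgv2, the highest. Trac was higher in Cd3-positive cells than in cells with no Cd3 UMI by a log2 ratio of 6.47 [6.37 to 6.58] and 6.96 [6.84 to 7.09]. Trdc was higher by 5.48 and 4.99, Tcrg-C1 by 6.24 and 5.74, Tcrg-C2 by 6.45 and 7.05, and Trgv2 by 7.23 and 7.93. Trbc1 had the smallest ratio of the 7, at 5.12 and 4.02. All 7 passed a log2 ratio of 3 in both libraries, as did 1.68% of 12170 genes and 1.61% of 12349. Cd3-positive cells were chosen by T cell genes, so these ratios describe the choice of cells as well.

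B-like cells served as the background of free RNA, since B cells rearrange immunoglobulin genes and make no T cell receptor. In 1355 and 781 B-like cells without a Cd3 UMI, at a median of 1317 and 2591 UMIs, Trac was at 17.2 and 12.6 CPM and Trdc at 0.465 and 1.30 CPM. At 1000 UMIs, 1.96% and 0.899% of them held a Trac UMI and 0% and 0.128% a Trdc UMI. Hepatocyte-like cells had Trac at 16.5 and 9.78 CPM, endothelial-like cells at 13.1 and 12.7, neutrophil-like cells at 12.5 and 13.6, Kupffer-like cells, the resident macrophages, at 8.84 and 7.37, monocyte-like cells at 7.47 and 5.93 and plasmacytoid dendritic cell-like cells at 5.77 and 5.24 CPM. The intervals of neighbours in this order overlapped in each library. Trdc was at most 2.67 CPM in these classes. In T-like clusters of the MCD-titled library, 218 cells without a Cd3 UMI had Trac at 1017 CPM, Trbc2 at 1487 and Trdc at 93.2 CPM, which are levels of T cells. In 126 plasma-like cells of the pool, which secrete antibody, Trbc1 was at 46.3 [35.1 to 60.0] CPM, Trbc2 at 68.2 [54.4 to 84.5] and Tcrg-C1 at 18.7 [11.8 to 28.0], above their B-like levels of 3.48, 22.6 and 0.869 CPM, while Trac was at 11.4 CPM. All 10 NK markers had UMIs in these plasma-like cells and summed to 427 CPM, from 0 to 15283 over cells, against 60.4 CPM in B-like cells, and their part was not tested. The plasma-like cluster also held 60 Cd3-positive cells among its 194. The part of T cells whose Cd3 UMIs were missed was not tested either. In clusters that took no name, 2896 and 5582 cells without a Cd3 UMI had Trac at 39.0 and 32.3 CPM, Trbc2 at 53.6 and 46.7 and Trdc at 2.71 and 4.01 CPM. Some of these clusters held mostly Cd3-positive cells, such as 169 of 215 cells in the MCD-titled library and 243 of 261 in the pool. Shares of cells at or under those of B-like cells were read as background.

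NK-like cells without a Cd3 UMI had beta constant genes with little Trac. NK cells kill without a rearranged receptor, and 264 cells of the MCD-titled library (median 1555 UMIs) and 471 of the pool (median 3508) took this name. The same clusters also held 191 and 272 Cd3-positive cells. The part of T cells whose Cd3 UMIs were missed was not tested. Trbc1 was at 436 [377 to 501] and 506 [474 to 541] CPM, close to its level in Cd3-positive cells. Trbc2 was at 434 [375 to 499] and 396 [367 to 426] CPM, well below its level in Cd3-positive cells. Trac was at 40.0 [23.7 to 63.3] and 18.1 [12.4 to 25.5] CPM, near the B-like background in the pool. At 1000 UMIs, Trbc1 was found in 34.5% and 38.4% of NK-like cells, Trbc2 in 27.4% and 23.5%, and Trac in 4.48% and 1.28%.

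The balance of the 2 beta genes differed as well. Trbc1 gave 50.1% [45.1 to 55.2] and 56.1% [53.7 to 58.6] of the Trbc1 and Trbc2 UMIs of NK-like cells, against 18.2% [17.7 to 18.8] and 19.6% [19.2 to 20.1] in Cd3-positive cells. In B-like cells the share was 20.4% and 13.3%, near that of Cd3-positive cells. There were 0.0460 and 0.02003 Trac UMIs per Trbc UMI in NK-like cells, 0.703 and 0.682 in Cd3-positive cells, and 0.685 and 0.483 in B-like cells. NK-like cells thus stood apart from Cd3-positive and B-like cells in both ratios and in both libraries. Some other classes of the pool lay between, with a Trbc1 share of 40.4% [32.3 to 49.0] and 0.0993 Trac per Trbc UMI in plasma-like cells, and 38.7% [26.6 to 51.9] and 0.161 in conventional dendritic cell-like cells. Neutrophil-like cells of the pool had a Trbc1 share of 35.3% [14.2 to 61.7] and 0.706 Trac per Trbc UMI.

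Trdc and Tcrg-C4 were also present in NK-like cells. Trdc was at 80.1 [56.1 to 111] and 68.3 [56.7 to 81.6] CPM and was found in 6.73% and 7.46% of cells at 1000 UMIs (11.7% and 17.8% unthinned). Of the NK-like cells of the MCD-titled library, 30 held Trdc without Trac, 15 Trac without Trdc and 1 both, and of those of the pool 79, 22 and 5. Tcrg-C4 was at 180 [143 to 224] and 265 [241 to 290] CPM and gave 91.0% and 92.0% of the UMIs of Tcrg-C1, Tcrg-C2 and Tcrg-C4, against 23.9% and 25.6% in Cd3-positive cells. Tcrg-C1 was at 17.8 and 18.1 CPM. Tcrg-C2 had no UMI in the MCD-titled library, where 3 UMIs would be 6.67 CPM, and was at 5.08 CPM in the pool. All 10 NK markers had UMIs in both libraries and summed to 13471 and 10398 CPM, with a range over cells from 0 to 46589 and from 571 to 46110 CPM. Of the 9 T cell markers other than the Cd3 genes, 7 had UMIs in the MCD-titled library, with Cd5 and Cd6 at 0, and all 9 in the pool, and they summed to 1377 and 1198 CPM.

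Within Cd3-positive cells, gamma-delta genes made up a larger part of the constant-gene UMIs in the MCD-titled library. Trdc, Tcrg-C1 and Tcrg-C2 gave 5892 of the UMIs of the 6 constant genes beside 31674 of Trac, Trbc1 and Trbc2, a share of 15.7% [15.3 to 16.1]. In the pool they gave 5513 beside 48103, a share of 10.3% [10.03 to 10.54]. With Trdc set alone against the alpha-beta genes the order turned, at 2.54% and 3.40%. The larger share of the MCD-titled library thus lay in Tcrg-C1 and Tcrg-C2.

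Cells with gamma-delta genes and no alpha-beta gene were rare in both libraries. At 1000 UMIs they were 55 of 2893 cells (1.90% [1.44 to 2.47]) in the MCD-titled library and 47 of 2776 (1.69% [1.25 to 2.25]) in the pool. In B-like cells the share was 0.393% and 0.257%. Unthinned, the class had 25 of 3076 cells (0.813%) and 9 of 2795 (0.322%). Cells with both kinds were common, at 942 (32.6%) and 507 (18.3%), and cells with alpha-beta genes alone were 1770 (61.2% [59.4 to 63.0]) and 2115 (76.2% [74.6 to 77.8]). The intervals of the libraries overlapped for gamma-delta genes alone and not for alpha-beta genes alone.

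**Figure D2:**
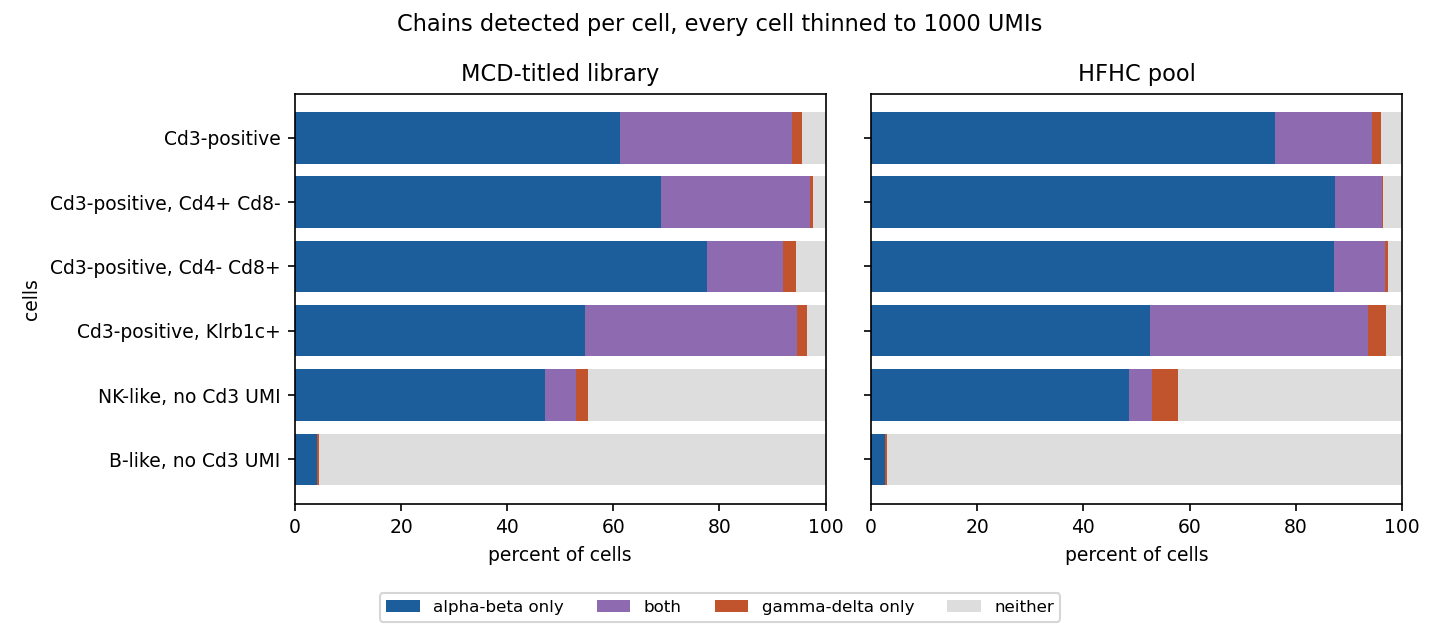
Percent of cells with UMIs of alpha-beta constant genes only, of both kinds, of gamma-delta genes only and of neither, in 6 groups of cells of each library, every cell thinned to 1000 UMIs. In Cd3-positive cells 61.2% and 76.2% held alpha-beta genes only and 1.90% and 1.69% gamma-delta genes only.

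Cells with Trdc held Trac less often than other Cd3-positive cells, and the pool had more cells with both. In the MCD-titled library 2555 Cd3-positive cells held Trac without Trdc, 133 (4.32% [3.63 to 5.10]) Trdc without Trac, 41 (1.33%) both and 347 neither. In the pool the numbers were 2475, 87 (3.11% [2.50 to 3.83]), 94 (3.36%) and 139. Trac was in 23.6% [17.5 to 30.6] of Trdc-positive cells of the MCD-titled library and 51.9% [44.4 to 59.4] in the pool, against 88.0% and 94.7% of cells without Trdc. At 1000 UMIs, 16 (0.553%) and 43 (1.55%) cells held both, and 118 and 101 held Trdc without Trac. At that depth Trdc-positive cells without Trac were the more numerous in both libraries, and the pool still had more cells with both. Thinning removes Trac UMIs from some cells. With all UMIs the pool had 94 cells with both and 87 with Trdc without Trac, so that its order depended on depth. Scrublet marked 24.4% and 4.26% of the cells with both as doublets, against 13.3% and 6.46% of those with Trac and no Trdc, and the part of doublets was not tested.

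**Figure D3:**
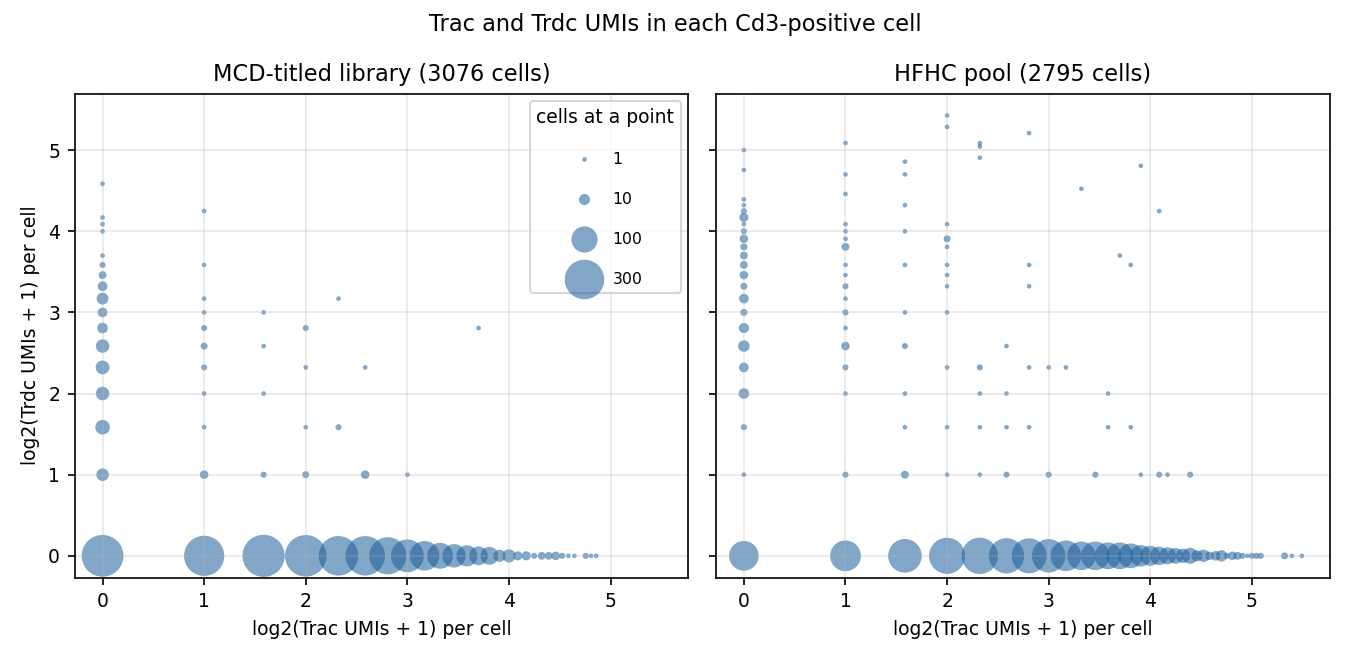
Trac against Trdc in each Cd3-positive cell, both as log2(UMIs + 1), with the area of a point rising with the number of cells. Most cells lie on one of the axes, and 41 cells of the MCD-titled library and 94 of the HFHC pool lie off both.

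The beta genes did not separate in this way. Trbc1 or Trbc2 was found in 87.9% and 95.03% of the Trdc-positive cells and in 95.8% and 97.3% of the others. Cells with at least 2 Trdc UMIs and no Trac UMI, a class set after the values had been seen, numbered 119 (3.87% [3.22 to 4.61]) and 86 (3.08% [2.47 to 3.79]). They held 79.5% of the Trdc UMIs of Cd3-positive cells in the MCD-titled library and 47.0% in the pool. Only 17 and 4 of these Trdc-rich cells had no Trbc UMI, and Trbc2 stood at 992 and 1098 CPM in them. Against Trac-rich cells (at least 2 Trac UMIs and no Trdc, 2242 and 2322 cells) the log2 ratio of Trbc1 was -0.69 and -1.05 and that of Trbc2 -1.09 and -0.96. The beta genes were thus lower in Trdc-rich cells but far above the B-like level.

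The gamma constant genes went with Trdc but were not held by Trdc-positive cells alone. Tcrg-C1 was at 294 CPM in Trac-rich and 1021 in Trdc-rich cells of the MCD-titled library and at 108 and 835 CPM in those of the pool, log2 ratios of 1.80 and 2.96. The ratios were 1.13 and 2.21 for Tcrg-C2 and 1.73 and 2.33 for Trgv2. Tcrg-C1 or Tcrg-C2 was found in 91.6% and 94.2% of the Trdc-rich cells, against 41.6% and 26.4% of all other Cd3-positive cells. Yet of 1338 and 797 cells with Tcrg-C1 or Tcrg-C2, 1190 and 647 had no Trdc UMI, and 94.2% and 97.7% of these had Trac. Cells with Trac, a Trbc gene and a gamma constant gene but no Trdc made up 35.5% [33.8 to 37.3] and 22.5% [20.9 to 24.1] of Cd3-positive cells, and 22.6% and 9.62% at 1000 UMIs. The gamma genes were therefore mostly counted in cells that also held alpha-beta genes.

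These gamma-positive cells without Trdc differed from other cells in the share with Klrb1c, Zbtb16 and Cd8. Klrb1c, the NK1.1 receptor, was found in 46.9% and 37.6% of them, against 30.9% and 10.4% of the rest. Zbtb16, the transcription factor of NKT cells, was in 23.4% and 16.5% against 14.8% and 3.72%. Cd8a or Cd8b1, the coreceptor for MHC class I, was in 4.37% and 24.4% against 19.1% and 42.8%. All 3 comparisons had the same order in both libraries.

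Trgv2 was found with Tcrg-C2, the gamma constant gene on its own strand. Of 401 and 368 Trgv2-positive cells, 88.3% and 92.1% held Tcrg-C2, against 21.5% and 11.6% of cells without Trgv2. Tcrg-C1 was in 63.3% and 50.3% against 25.8% and 12.4%, and Tcrg-C4 in 63.3% and 67.4% against 20.2% and 10.8%. Tcrg-V1, another gamma segment, was in 147 and 164 cells, of which 78.9% and 82.3% held Tcrg-C4 against 23.1% and 14.3% of the rest. Trac was found in 85.3% and 85.9% of Trgv2-positive cells and Trdc in 14.96% and 22.3%. Trgv2 was thus seen mostly in cells with Trac.

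Variable, diversity and joining segments had few UMIs beside the constant genes, and most of the gamma segment UMIs were of Trgv2. Not scaled by length, there were 12.9 and 19.0 gamma segment UMIs per 100 UMIs of gamma constant genes, against 1.40 and 3.81 for alpha, 1.18 and 3.04 for beta and 3.995 and 6.43 for delta. Trgv2 gave 626 and 633 of 858 and 973 gamma segment UMIs, Tcrg-V1 176 and 226, and Tcrg-V4 14 and 35. Traj18, the joining segment of the invariant NKT receptor, led the alpha segments with 35 and 74 UMIs. The next were Traj27 with 34 in the MCD-titled library, a lead within counting error, and Trav9-2 with 48 in the pool. Of the 33 and 70 cells with Traj18, 97.0% and 98.6% held Trac, while 0% and 2.86% held Trdc. Trdv4 led the delta segments with 15 and 58 UMIs, in 10 and 22 cells, of which 5 and 17 held Trdc.

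The genes that separated Trdc-rich from Trac-rich cells in both libraries were ranked over 10503 genes by the log2 ratio of the library in which it lay nearer to 0, with a class chosen after the values were seen. The highest by this rank were Sox13 and Cd163l1, a transcription factor and a scavenger receptor of gamma-delta T cells, with log2 ratios of 4.53 and 6.69 and of 4.11 and 6.85. A ranked gene needed only 20 UMIs in each library, in both classes together. Sox13 rested on 12 UMIs in Trdc-rich and 11 in Trac-rich cells of the MCD-titled library and on 35 and 9 in the pool. Only 10 of 119 and 16 of 86 Trdc-rich cells lay in the subcluster with Sox13 and Cd163l1 among its leading genes, given further on. In the MCD-titled library 39 lay in the subcluster led by Gzma and Klra5. In the pool 32 lay in that led by Klra7 and Klra6. The subclusters with Il4 held 35 and 13 of the Trdc-rich cells. Ncr1, a receptor of NK cells, was higher by 4.41 and 3.45. Klrb1a, Cd200r2, Mmp25, Tshz3, Pianp and 5830411N06Rik were also among the 10 highest. The lowest were Cd8b1, at -5.01 and -3.39, and Cd4, at -3.11 and -6.35, followed by Chst2, Foxp3, Izumo1r, Ctla4, Cd5, Klrg1, A630023P12Rik and Hes1. Foxp3, the factor of regulatory T cells, had 0 UMIs in the Trdc-rich cells of both libraries, against 117 and 1450 in Trac-rich cells.

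NK markers were higher in Trdc-rich than in Trac-rich cells in 1 of the 2 libraries. In the Trdc-rich cells 9 of 10 NK markers had UMIs in each library, with Klra4 at 0, and summed to 2564 CPM in the MCD-titled library (over cells from 0 to 21260) and to 829 CPM in the pool (from 0 to 7913). In Trac-rich cells all 10 had UMIs and they summed to 651 and 927 CPM. The 9 T cell markers all had UMIs in the Trdc-rich cells, with sums of 1835 and 1936 CPM against 2331 and 2622 in Trac-rich cells. Scrublet marked 19 and 8 of the Trdc-rich cells. The part of NK RNA in these ratios was not tested.

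With the stricter class of cells with gamma-delta genes and no alpha-beta gene, 25 and 9 cells stood against 1662 and 1930 with alpha-beta genes only, over 9954 genes. The 10 highest genes, led by Gm15879, Gm48551 and Acsm1, had 0 to 4 UMIs each in these cells, which is too few to describe them. At the other end Cd8b1 had 0 UMIs in both libraries, against 874 and 4327, and Cd4 had 2 and 0, against 1214 and 2177.

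Subclusters of Cd3-positive cells, formed without T cell receptor genes, differed widely in the gamma-delta share. The subcluster led by Blk and Cd163l1, with Sox13 and Il23r among its leading genes, had the highest share in each library, 47.9% [43.5 to 52.3] in 35 cells and 48.7% [46.1 to 51.3] in 68 cells. Trdc stood at 1261 and 1082 CPM there, Tcrg-C1 at 1287 and 1188, and Trac at 1209 and 1070. Trac without Trdc was found in 15 and 42 of these cells, Trdc without Trac in 11 and 16, and both in 6 and 10. The subcluster thus held cells of both kinds at the level of single genes.

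Trdc was also above its level in all Cd3-positive cells in some subclusters with NK receptors, and near or at 0 in others given further on. In the MCD-titled library a subcluster of 180 cells was led by Gzma and Klra5, with Ncr1. It had Trdc at 623 CPM, Tcrg-C1 at 574, Tcrg-C2 at 538 and Trac at 606 CPM. Trdc without Trac was in 43 of its cells, Trac without Trdc in 44, both in 6 and neither in 87. Gzma stood at 7415 and Ncr1 at 413 CPM there, and the part of NK cells was not tested. In the pool a subcluster of 286 cells led by Klra7 and Klra6 had Trdc at 429 and Trac at 1180 CPM. Trdc without Trac was in 33 of these cells, both in 33 and Trac without Trdc in 214. A subcluster of 47 cells led by Ncr1 had Trdc at 281 and Tcrg-C2 at 549 CPM. Cd3-positive cells that clustered with NK-like cells, 191 and 272, had a gamma-delta share of 38.0% and 18.7% and a Trbc1 share of 22.3% and 18.2%, near that of Cd3-positive cells as a whole.

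Tcrg-C1 and Tcrg-C2 were also high in further subclusters, some of which had little or no Trdc. The subclusters with Il4, Il2ra and Socs2 among their leading genes, 882 and 408 cells, had Tcrg-C1 at 532 and 428 CPM and Tcrg-C2 at 526 and 511, with Trdc at 140 and 123 and a gamma-delta share of 17.9% and 17.4%. A subcluster of 386 cells led by Chst2 and Klrb1f in the MCD-titled library had Tcrg-C2 at 708 and Tcrg-C1 at 424 CPM with Trdc at 2.68. In the pool, 106 cells led by Klra9 and Styk1 had Tcrg-C2 at 438 CPM and no Trdc UMI. Tcrg-C1 and Tcrg-C2 were thus high both with and without Trdc.

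Subclusters led by Foxp3, by Dapl1 with Ccr7 (a homing receptor of naive T cells) and, in the pool, by Gzma with Havcr2 had few gamma-delta UMIs. Those led by Foxp3, 56 and 206 cells, had a share of 0.300% and 1.19% with Trac at 2188 and 2987 CPM. Those with Ccr7, 431 and 249 cells, had 2.85% and 2.24%. The pool's 280 cells with Havcr2 and Lag3, receptors of exhausted T cells, had 1.08%, with Trac at 3623 and Trbc2 at 4409 CPM, the highest of any subcluster for both. Those led by Pclaf, with the proliferation gene Mki67, 96 and 55 cells, had Trac at 1527 and 1578 CPM. Subclusters led by genes of another lineage, 6 and 5, are drawn apart, and without them the gamma-delta share of all Cd3-positive cells was 15.8% and 10.4%.

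**Figure D4:**
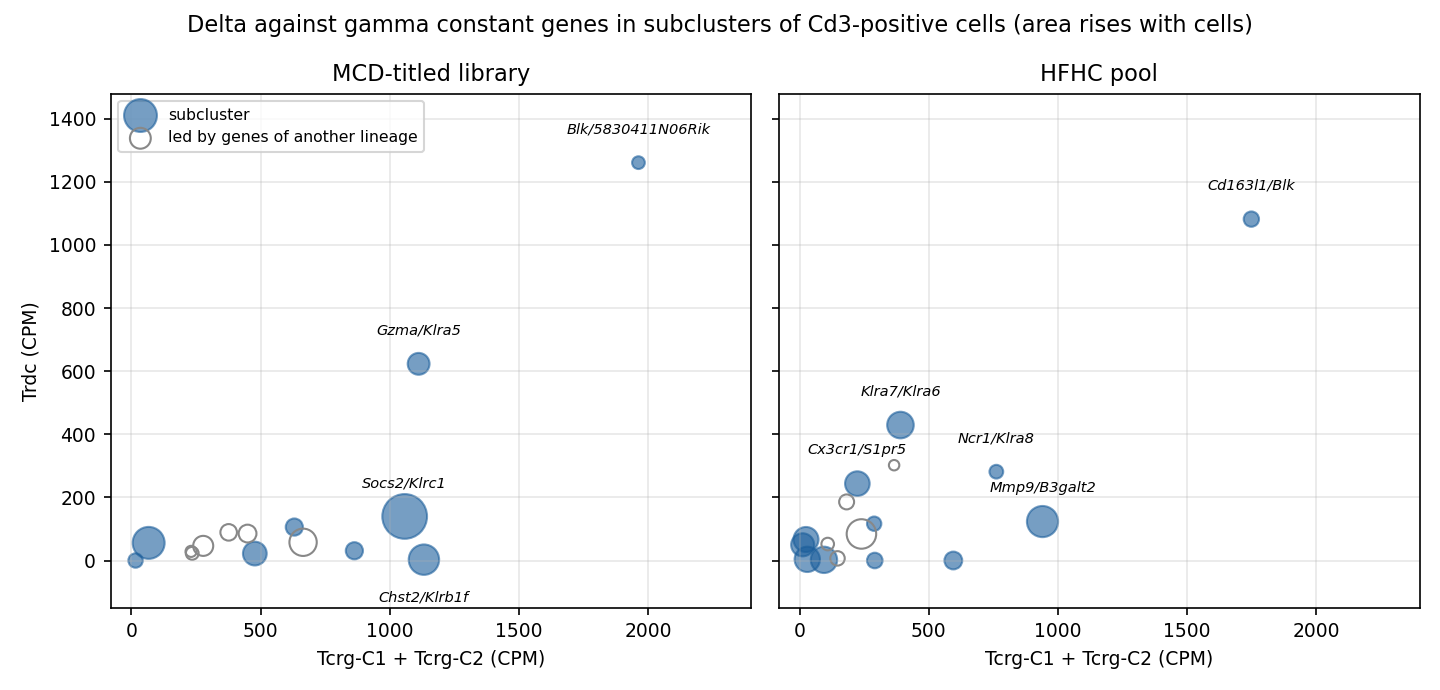
Level of Trdc (CPM) against the summed level of Tcrg-C1 and Tcrg-C2 (CPM) in subclusters of Cd3-positive cells, with area rising with the number of cells, labels giving 2 leading genes and open points led by genes of another lineage. The subcluster of Blk and Cd163l1 lies highest in both libraries, at 1261 and 1082 CPM of Trdc.

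Between the libraries, the HFHC pool had lower gamma constant genes in Cd3-positive cells, and 1 of the 7 genes passed a log2 ratio of 1. That was Tcrg-C1, at -1.07 [-1.16 to -0.98], where 4.64% of 10056 genes were as much lower and 5.91% as much higher in the pool. Tcrg-C2 was at -0.93 [-1.01 to -0.85] and Trgv2 at -0.56 [-0.73 to -0.40]. Trdc was at 0.46 [0.34 to 0.58], Trbc1 at 0.15 [0.09 to 0.21], Trbc2 at 0.02 [-0.01 to 0.04] and Trac at -0.00 [-0.04 to 0.03], beside a median of 0.03 over all genes. The choice of cells moved Trdc between 0.17 [0.04 to 0.31], at a mitochondrial limit of 10%, and 0.58, and moved Tcrg-C1 between -0.94, with 1 Cd3 UMI sufficing, and -1.33, without cells that held markers of another lineage.

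Of the classes of cells compared, the log2 ratios of the gamma genes were farthest from 0 in cells with Cd4 and no Cd8 UMI, 1016 in the MCD-titled library and 816 in the pool. Tcrg-C2 was at 333 CPM in the former and 69.7 in the latter (log2 -2.25 [-2.47 to -2.04]), Tcrg-C1 at 255 and 78.1 CPM (-1.70 [-1.92 to -1.496]) and Trgv2 at 87.4 and 19.6 CPM (-2.14 [-2.58 to -1.75]), while 4.28% of 7214 genes were lower and 6.43% higher by at least 1. Trac stood at 1949 and 1967 CPM. Trdc was low in both, at 12.9 and 16.8 CPM. The gamma-delta share of these cells was 11.6% and 3.67%. The subclusters with most of these cells differed in part between the libraries. In the MCD-titled library 281 of these cells lay in the subcluster with Il4 and 174 in that led by Chst2. In the pool 214 lay in a subcluster led by Gpm6b and 152 in that led by Foxp3, where Tcrg-C1 was at 2.89 and 1.86 CPM, and 116 in the one with Il4. Within the subclusters with Il4, these cells had Tcrg-C1 at 494 and 294 CPM and Tcrg-C2 at 443 and 317 CPM, with the same order of the libraries. All 10 NK markers had UMIs in them and summed to 496 CPM in the MCD-titled library and 184 CPM in the pool, and their part in the difference was not tested.

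In cells with Cd8 and no Cd4 UMI, 385 and 1021, Trdc and Tcrg-C1 were lower in the pool. Trdc was at 142 and 70.4 CPM (log2 -1.01 [-1.30 to -0.72]) and Tcrg-C1 at 119 and 41.7 CPM (-1.51 [-1.85 to -1.17]), where 2.99% of 6683 genes were lower and 6.7% higher by at least 1. Tcrg-C2 was at -0.28, Trac at 0.61 [0.52 to 0.69] and Trbc1 at 0.78 [0.61 to 0.96]. The subclusters with most of these cells differed as well. In the MCD-titled library 218 of them were in the subcluster led by Dapl1, with Trdc at 1.93 CPM, and 49 in that led by Gzma and Klra5, with Trdc at 1205 CPM. In the pool 273 were in the subcluster with Havcr2, with Trdc at 2.16 CPM, and 208 in that led by Cx3cr1, with Trdc at 221 CPM. In the pool's subcluster led by Dapl1, which held 139 of these cells, Trdc was at 51.7 CPM, so that there the order of the libraries was opposite to that of the class. All 10 NK markers had UMIs in the class and summed to 1156 CPM in the MCD-titled library and 1610 in the pool, and their part was not tested.

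In cells with Klrb1c and no Cd8 UMI, 1088 and 412, the order of Trdc was opposite, at 79.0 and 230 CPM (1.54 [1.30 to 1.78]), where 3.79% of 6222 genes were higher and 3.76% lower by at least 1. Tcrg-C1 was at -0.39, Tcrg-C2 at -0.03 and Trac at -0.36 [-0.43 to -0.30] in these, and Trgv2 at 0.37 [0.11 to 0.63], opposite to its direction in all Cd3-positive cells. The subclusters with Il4 held 498 and 190 of them, with Trdc at 77.0 and 150 CPM. The other subclusters of these cells differed in part between the libraries. In the MCD-titled library 98 lay in that led by Gzma and Klra5, with Trdc at 303 CPM. In the pool 45 lay in that led by Klra7, with Trdc at 727 CPM, and 63 in that led by Klra9, with Trdc at 0. The NK markers, all 10 with UMIs, summed to 1939 and 1376 CPM in this class, and their part was not tested. The ratios of Trdc and Trgv2 between libraries therefore depended on the cells in which they were taken.

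**Figure D5:**
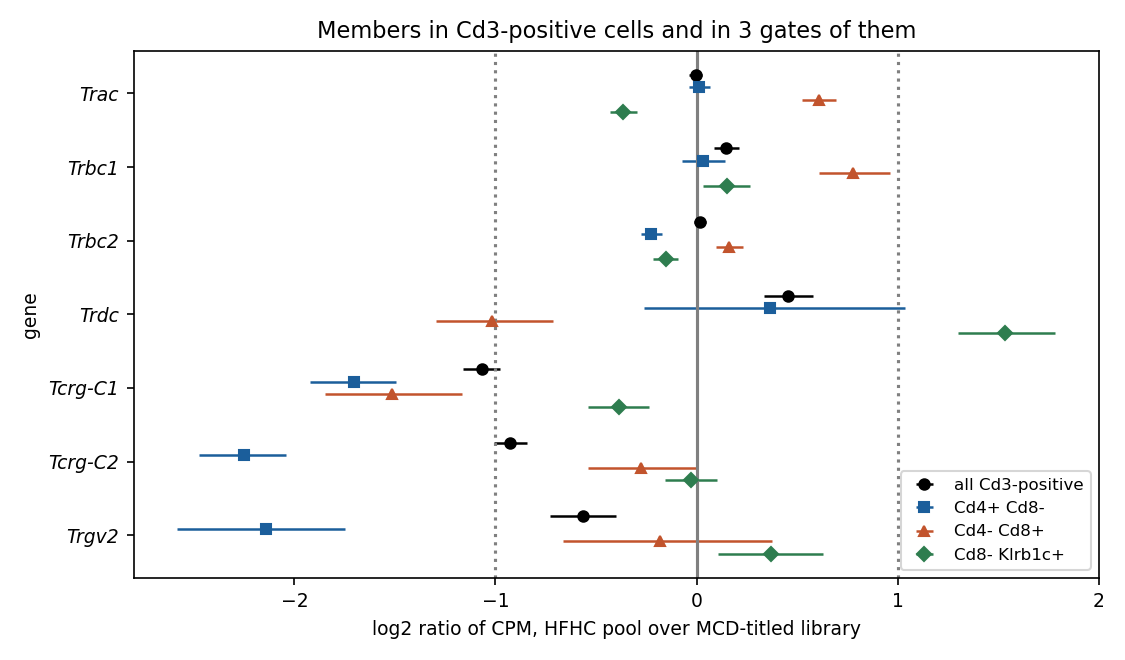
Ratio (log2) of pool to MCD-titled library for the 7 genes in all Cd3-positive cells, in cells with Cd4 and no Cd8, with Cd8 and no Cd4, and with Klrb1c and no Cd8. Bars are 95% intervals and dotted lines mark a log2 ratio of 1 in each direction. Trdc lies at -1.01 in the Cd8 cells and at 1.54 in the Klrb1c cells.

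Other genes of the receptor pathway are given beside the 5.91% of all genes that were higher and the 4.64% that were lower by at least 1, shares at which lists this short hold few such genes. None of the 4 CD3 genes passed a log2 ratio of 1 in Cd3-positive cells, with a median of 0.02, and Cd247, the zeta chain, was highest at 0.92. Cd3d, Cd3e and Cd3g were used to choose these cells, which bears on their ratios, and only Cd247 took no part in that choice. Of 10 signalling genes only Themis passed, at 1.25, with a median of 0.14. Among the coreceptors Cd8a and Cd8b1 were higher in the pool by 1.69 and 1.88, and Cd4 was at -0.23. Among genes listed as gamma-delta programme Cd163l1 (1.15) was higher and Zbtb16 (-1.91) lower. Zbtb16 was not particular to cells with Trdc here. Of Cd3-positive cells with Zbtb16, 92.1% in the MCD-titled library and 85.0% in the pool held Trac without Trdc. Of 6 NK receptor genes Klra7 was higher (1.195) and Klrb1c lower (-1.66). The 4 genes of recombination and the pre-receptor had too few UMIs, with none of Rag1 and Rag2.

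Across clusters of all kept cells, 27 in the MCD-titled library and 23 in the pool, the 5 genes most like the alpha-beta genes in level were T cell genes, and the 5 most like the gamma-delta genes were led by genes of cytotoxic lymphocytes. The log2 level of Trac, Trbc1 and Trbc2 together had a Pearson's r of 0.991 and 0.992 with Cd3e, part of the CD3 complex, followed by Lck (0.984 and 0.980), Cd3g, Bcl11b and Thy1. That of Trdc, Tcrg-C1 and Tcrg-C2 had an r of 0.961 and 0.935 with Cd160, a receptor of cytotoxic lymphocytes, and of 0.945 and 0.918 with Ifng, followed by Samd3, Klrc1 and Nkg7. These are descriptions, since the clusters of a library share its capture and free RNA, and the same cells defined them.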

How the data were processed

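Counts were taken as deposited: per the file headers the authors made them with the BD Rhapsody WTA Analysis Pipeline 1.10.1 and GENCODE M19, as error-corrected UMIs for each cell and gene. The submitters' processing notes name Seurat and GRCm38. A further sample, of tag reads, was not analysed here, and 0 columns were left unmapped. Cells with 200 to 4000 genes and at most 25% mitochondrial UMIs were kept. UMIs were summed over cells as CPM. Log2 ratios had 1 UMI added and needed 100 UMIs in both groups together. Those between chain classes instead needed 20 UMIs in each library, in both classes together. Thinning used seed 42.

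Each library was clustered in scanpy 1.11.5 (2000 variable genes, 30 principal components, 15 neighbours, Leiden resolution 1.0, and 0.8 for Cd3-positive cells), without T cell receptor and mitochondrial genes. A cluster was named from a marker score of at least 1 and 1 above the next, with 3 markers in 10% of cells. Its leading genes could not hold more markers of another lineage than of its own. A cluster of low depth with no marker of its own among its leading genes took no name either. Scrublet called 1908 and 392 doublets, which were kept. A subcluster scoring 2 for another lineage counted as led by it. These thresholds were set after clusters were seen.

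Genes were named by list, by the 3 leading segments of a locus, by the 10 highest and lowest ratios between chain classes, and by the 5 most alike across clusters. Some genes of these lists are not reported here. Members and lists were chosen with earlier results of these data known. Coordinates and transcripts are GENCODE vM21 on GRCm38. Calculations ran in Python 3.11.15 with numpy 2.4.6, scipy 1.17.1 and pandas 2.3.3 and were tested on simulated data.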

Additional observations from a re-analysis of the deposited data

How the results depend on the processing

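The log2 ratios of Trbc1, Trdc, Tcrg-C1, Tcrg-C2 and Trgv2 kept their direction under all alternatives run, while those of Trac (-0.07 to 0.13) and Trbc2 (-0.06 to 0.14) lay on both sides of 0. That of Trbc1 was 0.04 [-0.04 to 0.11] with cells holding markers of another lineage removed, an interval that holds 0. The alternatives changed the Cd3 threshold, the cell filter, the thinning depth and the genes counted, or removed doublets or cells with markers of another lineage. For the log2 ratios, scaling by the median of the gene ratios and a floor of 20 UMIs were also run. Removing subclusters led by another lineage was chosen after seeing the data. For the log2 ratios and the Trdc-rich cells, none of the alternative choices of cells was planned beforehand. Of the CPM levels under alternatives, 79 of 112 lay outside their counting interval, as did 30 of 70 log2 ratios. The 70 include the floor of 20 UMIs, which could not move a ratio. Of 20 alternatives for the gamma-delta share, 13 stayed within the counting interval and 7 lay outside it. A mitochondrial limit of 10% gave 16.6% and 9.73% in the MCD-titled library and the HFHC pool. Removing cells with markers of another lineage gave 9.44% in the pool. Adding Tcrg-C4 gave 19.1% and 12.4%, and Trdc alone gave 2.54% and 3.40%, which turned the order of the libraries. For cells with gamma-delta genes only, 18 of 26 alternatives stayed. Trdc alone gave 1.24% and 1.12%, thinning to 500 UMIs 4.50% and 3.37%, thinning to 2000 UMIs 0.493% and 0.465%, and no thinning 0.813% and 0.322%, so that this share is a value of its depth. Tcrg-C2 passed a log2 ratio of 1 with no upper limit on genes (-1.03), no filter (-1.03), a mitochondrial limit of 10% (-1.01) and cells with markers of another lineage removed (-1.14). Tcrg-C1 missed it when 1 Cd3 UMI sufficed (-0.94). No paired analysis was possible because each group is 1 library and no result comes from a test. The cause of these moves was not tested.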
